A study of Mus musculus with 4 samples.

Results

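The Wnt receptors described here are the Frizzled genes Fzd1, Fzd2, Fzd4, Fzd5, Fzd6, Fzd7, Fzd8 and Fzd9 and the coreceptor genes Lrp5 and Lrp6. They were listed by name as a family, with earlier results of these data known, and make up 10 of the 21090 genes in the table. RNA was sequenced from 4 mouse mammary tumor cell lines, with 1 library per line. By the paper's account, the lines go back to a primary mammary tumor with lung metastasis. The mouse had an activating Pik3ca mutation and a mutant Trp53, both switched on by Cre under the MMTV promoter. On that account, all 4 lines share this background. The control group held the parental line, which received no virus, and a vector control line. In the knockout group, S100a4, which encodes a calcium-binding protein linked to metastasis, was edited in exon 3 in one line and in exon 2 in the other. Each edited line was made with a lentivirus carrying Cas9 and a guide RNA and was selected with puromycin. The titles give the cell number as 307 for 3 libraries and as 308 for the exon 2 knockout. Whether 308 was a separate line is not stated. If it was, line and edit cannot be told apart in the exon 2 knockout.

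Frizzled proteins are membrane-spanning receptors that bind secreted Wnt ligands through an extracellular cysteine-rich domain. Lrp5 and Lrp6 bind the same ligands beside a Frizzled, and the complex recruits Dishevelled and Axin to the membrane, which stabilises beta-catenin for transcription with the Tcf factors. Frizzleds also act without the coreceptors in planar polarity and Wnt-calcium signalling. In the mammary gland, Wnt signalling supports stem cells and duct growth, and its activation by viral insertion beside a ligand gene was an early example of mammary oncogenesis.

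The sequences that carry the receptor function are the KTxxxW motif, through which Frizzleds contact Dishevelled, and the PPPSP motif of the coreceptors, which binds Axin once phosphorylated. A search of the translated GENCODE M21 coding sequences found 1 KTxxxW match in each of the 8 Frizzled members and 3 matches to PPPSP or PPPTP in each coreceptor. The coding DNA of GRCm38 around the motif is shown for the Frizzleds on which the results turn and for the first match of each coreceptor. Capitals mark the codons of K, T and W in the Frizzleds and the PPPSP codons in Lrp5 and Lrp6.
Fzd2: tccggcAAGACActgcactcgTGGaggaag
Fzd7: tcgggcAAGACCctgcagtcaTGGcgtcgc
Fzd6: agcaaaAAGACGtgcacagaaTGGgccggg
Fzd9: agttccAAGACTtttcagactTGGcagagc
Lrp5: ctgaacCCACCCCCGTCCCCGgccaca
Lrp6: ttgaacCCACCACCATCGCCTgccaca

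The stretches lie at chr11:102606367-102606396 on the plus strand for Fzd2, chr1:59484601-59484630 on the plus strand for Fzd7 and chr15:39033943-39033972 on the plus strand for Fzd6. The remaining stretches lie on the minus strand, at chr5:135249410-135249439 for Fzd9, chr19:3586451-3586477 for Lrp5 and chr6:134453618-134453644 for Lrp6. All are within a coding exon. The Frizzled motif lay 17 residues from the end of the protein in Fzd1, Fzd2 and Fzd7, 33 in Fzd4, 54 in Fzd9, 55 in Fzd5 and 206 in Fzd6, so that, among these 7, the tail beyond the motif was longest in Fzd6. By identity of aligned residues, the closest members were Fzd1 and Fzd7 at 81.6%, Fzd1 and Fzd2 at 81.4% and Fzd2 and Fzd7 at 79.4%. Fzd5 and Fzd8 shared 71.0%, and the coreceptors Lrp5 and Lrp6 shared 69.6%. How reads that fit more than 1 gene were counted is not stated in the sources used here.

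The totals behind the values were between 22472024 and 31235456 reads per library, of which 65.1% to 67.0% lay in listed genes. S100a4 itself stood at 3576 RPKM (reads divided by gene length in kilobases and by the depth of the library) in parental cells, 4741 in vector control cells, 1136 in exon 3 knockout cells and 1105 in exon 2 knockout cells. Edited transcripts can still be read, so this level does not measure the knockout. The paper traces the parental line to a metastatic sarcomatoid adenocarcinoma, and describes cells from its sarcomatoid tumors as spindle-shaped. The markers were read beside that description. Of 14 epithelial markers, 4 reached a mean of 1 RPKM, while Epcam and Cdh1 stayed below 1 RPKM in every library. Krt8 lay between 27.5 and 78.9 RPKM, Krt18 between 6.10 and 60.2 and Esr1 between 1.65 and 3.66. Krt7 had 25.7 RPKM in exon 2 knockout cells and between 0.795 and 1.79 in the others. All 14 mesenchymal markers reached that mean. Of 7 immune markers with values, only Cd68 reached it, at 4.92 RPKM in parental cells, 3.36 in vector control cells, 11.5 in exon 3 knockout cells and 13.2 in exon 2 knockout cells. Adgre1 was also listed as an immune marker but had no values under that symbol. Ptprc, which all leukocytes carry, was at 0.01 RPKM or less, and no endothelial marker was tested. The mesenchymal sum was 6196 RPKM in parental cells, 3821 in vector control cells, 3443 in exon 3 knockout cells and 3364 in exon 2 knockout cells. Vim and Sparc had the highest means of that list, so the sum follows few genes. By mean log2 value, 10 of its markers were lower and 4 higher in the knockouts, beside 55.0% of all tested genes lower. The epithelial sum was 135, 38.9, 111 and 102 RPKM in the same order. The part of these markers in the receptor values was not tested. The parental line and the vector control, both controls, were at least 2-fold apart in 8.53% of genes, against 4.99% for the 2 knockouts.

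The receptor levels were compared first within the lines, on the RPKM scale, which is per length. Lrp5 and Fzd2 were the most abundant receptors, Lrp6 and Fzd7 followed, and Fzd4 was the lowest in all 4 libraries. Means over the 4 libraries were 42.8 ± 14.4 RPKM for Lrp5 and 41.6 ± 9.78 for Fzd2 (SD, n = 4), and their ranges overlapped. Lrp6 averaged 11.1 ± 4.49 RPKM and Fzd7 10.7 ± 3.34, and these also overlapped each other, while every value of Fzd2 lay above every value of Lrp6. Fzd6 (5.16 ± 1.94 RPKM) lay below Fzd7 in every library without overlap. From Fzd6 downward, through Fzd5 (4.43 ± 1.76), Fzd8 (4.36 ± 0.465), Fzd9 (2.55 ± 1.46), Fzd1 (1.86 ± 0.453) and Fzd4 (1.13 ± 0.399), each receptor's range overlapped that of the next. All 10 members reached the mean of 1 RPKM required for testing.

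**Figure D1:**
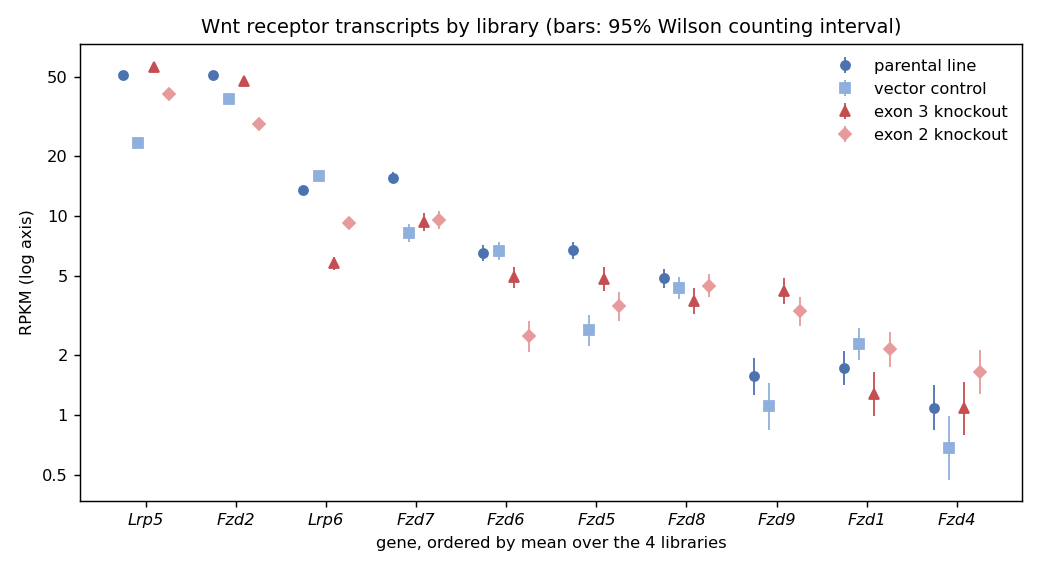
RPKM of each receptor (log axis) in the 4 libraries, with genes ordered by their mean and bars showing the 95% Wilson interval of the recovered read count, which covers counting error only. Lrp5 and Fzd2 sit at the top in all libraries, Fzd9 is above both controls in both knockouts, and Lrp6 and Fzd6 are below both controls in both knockouts.

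Fzd2, a receptor of canonical and non-canonical Wnt signals, is encoded by a single coding exon at chr11:102604396-102608058 on the plus strand. It had 50.9 RPKM in parental cells, 38.8 in vector control cells, 47.5 in exon 3 knockout cells and 29.0 in exon 2 knockout cells. The controls (44.8 ± 8.52 RPKM, SD, n = 2) and the knockouts (38.3 ± 13.1, SD, n = 2) overlapped. The vector control lay between the knockouts.

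Fzd7 (chr1:59482424-59486955, plus strand), a receptor studied in stem cells and in breast cancer, had 15.6 RPKM in parental cells, 8.25 in vector control cells, 9.34 in exon 3 knockout cells and 9.53 in exon 2 knockout cells. The parental line was the high sample, and the other 3 libraries lay close together. Fzd1 (chr5:4753839-4758035, minus strand), the remaining member of the same close family, had 1.73 RPKM in parental cells, 2.29 in vector control cells, 1.28 in exon 3 knockout cells and 2.15 in exon 2 knockout cells. Its groups overlapped, and each value rested on 58 to 112 reads.

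Fzd5 (chr1:64730558-64737751, minus strand), a receptor needed in gut and vessel development, had 6.72 RPKM in parental cells, 2.67 in vector control cells, 4.82 in exon 3 knockout cells and 3.52 in exon 2 knockout cells. The controls were thus the highest and the lowest samples. The coding part of Fzd5 is overlapped on the other strand by the unnamed gene model Gm38058, and whether the counting used strand is not stated. Fzd8 (chr18:9212163-9218136, plus strand), its closest relative, had 4.87 RPKM in parental cells, 4.36 in vector control cells, 3.75 in exon 3 knockout cells and 4.48 in exon 2 knockout cells. Fzd8 was the steadiest receptor, with a highest value 1.30 times its lowest.

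Fzd4 (chr7:89404355-89413134, plus strand), the receptor of Norrin in retinal vessels as well as of Wnts, was near the limit for testing. It had 1.09 RPKM in parental cells, 0.683 in vector control cells, 1.08 in exon 3 knockout cells and 1.65 in exon 2 knockout cells, from 28 to 60 reads. The parental line and the exon 3 knockout were almost equal, so the groups overlapped. The family members outside the list were lower still. Fzd3, a planar polarity receptor, had between 0.112 and 0.669 RPKM, and Fzd10 had 0 reads in every library, where a count of 0 allows up to 3 reads.

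The make-up of the Frizzled pool was described as the share of each gene in the summed Frizzled RPKM. The sum was 89.1 RPKM in parental cells, 65.5 in vector control cells, 77.3 in exon 3 knockout cells and 56.5 in exon 2 knockout cells, and its groups overlapped. Fzd2 held most of the pool in every line, with 57.1% in parental cells, 59.3% in vector control cells, 61.5% in exon 3 knockout cells and 51.4% in exon 2 knockout cells. The close relatives Fzd1, Fzd2 and Fzd7 together held between 72% and 76.6%. Fzd5 and Fzd8 together held between 10.7% and 14.1%.

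The smaller shares differed more between the lines. Fzd9 held 1.76% of the pool in parental cells and 1.69% in vector control cells, against 5.45% in exon 3 knockout cells and 5.88% in exon 2 knockout cells. Fzd6 held 7.33% in parental cells, 10.2% in vector control cells, 6.38% in exon 3 knockout cells and 4.41% in exon 2 knockout cells. The share of Fzd9 was therefore higher in both knockouts than in both controls, and that of Fzd6 was lower. With 2 libraries against 2, an exact two-sided permutation test cannot go below p = 0.333 for any single value, so no such share can pass a threshold of 0.05. The length behind the RPKM values equalled an annotated coding length for every Frizzled member but Fzd6, at 2160 bases against 2196 and 2130. The noncoding part of the exons was between 22.4% in Fzd9 and 76.0% in Fzd4 for the members and 84.4% in Fzd3. Dividing the recovered reads by all exon bases instead gave Fzd9 3.17%, 3.0%, 9.43% and 10.4% in the same order of libraries, again with both knockouts above both controls.

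**Figure D2:**
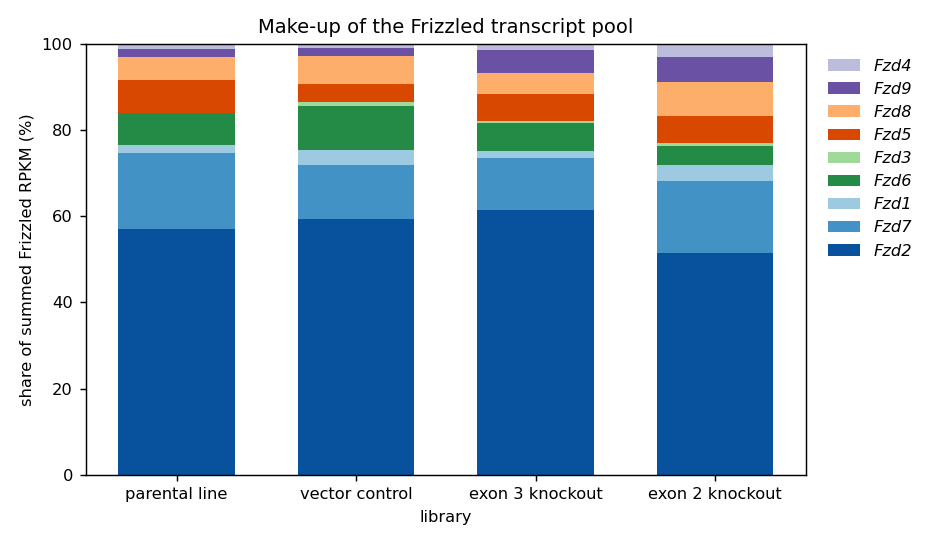
Share of each Frizzled gene in the summed Frizzled RPKM (%), stacked to 100 for each of the 4 libraries. Fzd2 fills more than 50% of every bar, and the band of Fzd9 is wider in the knockouts (5.45% and 5.88%) than in the controls (1.76% and 1.69%).

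The knockouts were then compared with the controls to ask which receptor transcripts differ when S100a4 is edited. Fzd9 was the one receptor higher in both knockouts than in both controls, Lrp6 and Fzd6 were lower in both, and the groups of the other 7 overlapped. No receptor passed the test across all genes. Both knockouts lay above both controls in 21.9% of all 10871 tested genes and below them in 31.2%, so 1 and 2 of 10 members were near the background. The test was limma on log2(RPKM + 1) with Benjamini-Hochberg adjustment, in which a log2 change understates that of low genes. It gave 0 of 10 members an adjusted p under 0.05, against 0.0184% of all tested genes, and 2 members an unadjusted p under 0.05, against 19.1% of all. The knockout lines were made with separate guide constructs, but each line gave 1 library. No source says that the lines of a group were cultured in separate experiments, so p-values measure the spread between these libraries. In bulk RNA, fewer cells that express a receptor and less receptor RNA per cell cannot be told apart.

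Fzd9, a receptor known from brain, bone and blood cells, is encoded by 1 coding exon at chr5:135248938-135251230 on the minus strand. It had 1.57 RPKM in parental cells (87 reads, 95% Wilson interval 1.27 to 1.93), 1.11 in vector control cells (50 reads, 0.840 to 1.46), 4.21 in exon 3 knockout cells (176 reads, 3.64 to 4.88) and 3.33 in exon 2 knockout cells (133 reads, 2.81 to 3.94). Both knockouts were high and both controls low, and no counting interval overlapped between the groups. From its RNA-seq of the knockout, parental and vector control lines, the paper lists Fzd9 under the Wnt pathway as affected, without a direction. The values here come from the same lines and are not separate evidence. The knockout mean (3.77 ± 0.628 RPKM, SD, n = 2) was 282% of the control mean (1.34 ± 0.325, SD, n = 2). The log2 change of 1.03 (SE 0.369) had a limma adjusted p of 0.187 and was the largest change in size among the members. The ratios of RPKM in the 4 pairs of knockout and control were between 2.12 and 3.81. On log2(RPKM + 1) the smallest pair, exon 2 knockout over parental line, came to 0.75, so Fzd9 was not 2-fold apart in every pair on that scale, while it was with a pseudocount of 0.1.

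Lrp6, the coreceptor on which most canonical Wnt signalling in the embryo depends, is encoded by 23 coding exons at chr6:134446476-134566965 on the minus strand. It had 13.5 RPKM in parental cells (12.9 to 14.1), 15.9 in vector control cells (15.2 to 16.6), 5.79 in exon 3 knockout cells (5.36 to 6.25) and 9.18 in exon 2 knockout cells (8.63 to 9.77), the parentheses again giving Wilson intervals. Both knockouts were below both controls, and the exon 3 knockout was the lowest. The knockout mean (7.49 ± 2.40 RPKM, SD, n = 2) was 51% of the control mean (14.7 ± 1.70, SD, n = 2). The log2 change of -0.91 (SE 0.342) had a limma adjusted p of 0.197.

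Fzd6, a receptor of planar polarity that can restrain canonical signals, lies at chr15:39006034-39038188 on the plus strand. It had 6.54 RPKM in parental cells (5.95 to 7.18), 6.67 in vector control cells (6.02 to 7.39), 4.93 in exon 3 knockout cells (4.36 to 5.58) and 2.49 in exon 2 knockout cells (2.09 to 2.98). The controls were nearly equal, and the exon 2 knockout was the lowest, at 0.506 times the exon 3 knockout. The log2 change of -0.74 (SE 0.373) had a limma adjusted p of 0.301. The order of the knockouts was opposite for the pair of lower receptors, with Lrp6 lowest in exon 3 knockout cells and Fzd6 lowest in exon 2 knockout cells.

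Lrp5, the coreceptor known for its part in bone mass, is encoded by 23 coding exons at chr19:3584828-3686564 on the minus strand. It had 50.8 RPKM in parental cells, 23.3 in vector control cells, 56.2 in exon 3 knockout cells and 40.9 in exon 2 knockout cells. The vector control was the low sample, and the parental line lay between the knockouts. The log2 change of 0.46 (SE 0.384) had a limma adjusted p of 0.523, and without the vector control it turned to -0.08. The remaining log2 changes ran from -0.25 for Fzd2 and Fzd7 to 0.33 for Fzd4, with adjusted p-values between 0.674 and 0.961. Of these, Fzd7 and Fzd5 turned positive without the parental line (0.17 and 0.48), Fzd2 and Fzd5 without the exon 2 knockout (0.10 and 0.13) and Fzd1 without the exon 3 knockout (0.07).

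As a list, 7 members were lower and 3 higher in the knockouts by mean log2 value, beside 55.0% of all tested genes that were lower, and quantile normalization turned the lower Fzd1, Fzd5 and Fzd8 to higher. The median log2 change was -0.15 over the members and -0.08 over all tested genes, against 0.17 and 0.04 with quantile normalization. With a correction for coding GC content and length, given below, the medians were -0.30 and 0.04. In size, the median was 0.288 for the members and 0.404 for all genes. No member was at least 2-fold apart in all 4 pairs, against 2.0% of all genes, and 4 members were at least 2-fold apart in some pair of a knockout and a control, against 34.2% of all genes.

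**Figure D3:**
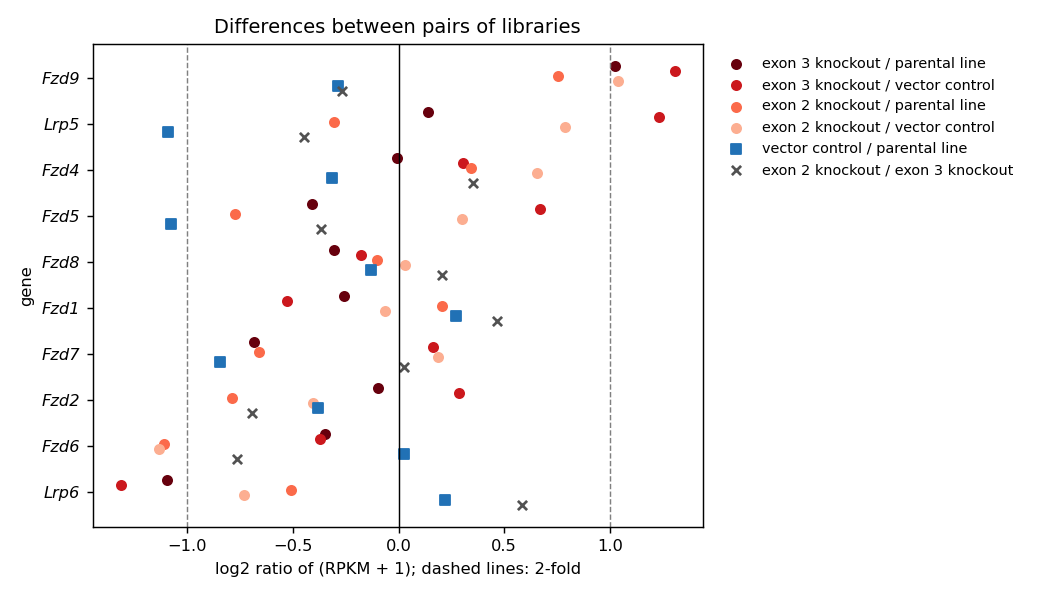
Log2 ratio of (RPKM + 1) for each receptor in the 4 pairs of knockout and control (red tones), between the controls (blue squares) and between the knockouts (crosses), with dashed lines at 2-fold. The 4 red points of Fzd9 lie between 0.75 and 1.31, those of Lrp6 and Fzd6 lie below 0, and the blue squares of Lrp5 and Fzd5 lie beyond the dashed line at -1.09 and -1.07.

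Single pairs of libraries have no replicate check and are given as counts at a 2-fold limit. The vector control had 2 of 10 members at least 2-fold below the parental line, Fzd5 and Lrp5, against 8.53% of all genes in either direction. Their log2 ratios of -1.07 and -1.09 were wider than any that those genes showed between a knockout and the parental line. The exon 2 knockout had none at least 2-fold from the exon 3 knockout, against 4.99% of all genes. Against the parental line, the exon 3 knockout had Fzd9 above and Lrp6 below the limit (16.7% of all genes passed it). Against the vector control it had Fzd9 and Lrp5 above and Lrp6 below (19.9%).

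The exon 2 knockout had Fzd6 below the limit against the parental line (10.4% of all genes), and Fzd9 above and Fzd6 below against the vector control (13.8%). These pairs share their libraries, so they are not independent of each other. Fzd4 was 2.42 times as high in exon 2 knockout cells as in vector control cells by RPKM but only 0.66 apart on log2(RPKM + 1), since its values were near 1 RPKM.

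The balance of the coreceptors was described as the ratio of Lrp5 to Lrp6, both per length. It was 3.77 in parental cells, 1.47 in vector control cells, 9.70 in exon 3 knockout cells and 4.46 in exon 2 knockout cells. Lrp6 made up 21.0% of the summed coreceptor RPKM in parental cells, 40.5% in vector control cells, 9.34% in exon 3 knockout cells and 18.3% in exon 2 knockout cells. The ratio was higher in both knockouts than in both controls (exact two-sided permutation p = 0.333, the smallest possible), but the parental line was close to the exon 2 knockout. The sum of both coreceptors overlapped between groups, at 64.3, 39.2, 62.0 and 50.1 RPKM in the same order. Relative to the summed Frizzled RPKM it was 0.722 in parental cells, 0.599 in vector control cells, 0.801 in exon 3 knockout cells and 0.886 in exon 2 knockout cells (exact two-sided permutation p = 0.333).

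Base composition moved with the comparison. Across 10773 tested genes with a coding sequence, the log2 change correlated with coding GC content at Pearson r = 0.458, a description across genes that share 4 libraries. Lrp6, Fzd6 and Fzd4 had the lowest GC contents of the members, at 49.3%, 49.0% and 51.7%, and the other 7 lay between 59.0% and 64.8%. Genes within 2 points of GC had a median log2 change of -0.25 around Lrp6 and -0.26 around Fzd6, in the same direction as these receptors. Around Fzd9 that median was 0.22, also in the direction of Fzd9. After each library was corrected for coding GC content and length, the log2 change was 0.85 for Fzd9, -0.36 for Lrp6 and -0.37 for Fzd6, with limma adjusted p-values of 0.338, 0.584 and 0.670. The corrected changes of Lrp6 and Fzd6 were thus smaller in size than the uncorrected ones by more than 1.5 times. The GC-rich Fzd1, Fzd2, Fzd5, Fzd7 and Fzd8 had corrected changes between -0.45 and -0.24. Those of Lrp5 and Fzd4 were 0.57 and 0.47, larger than the uncorrected 0.46 and 0.33.

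**Figure D4:**
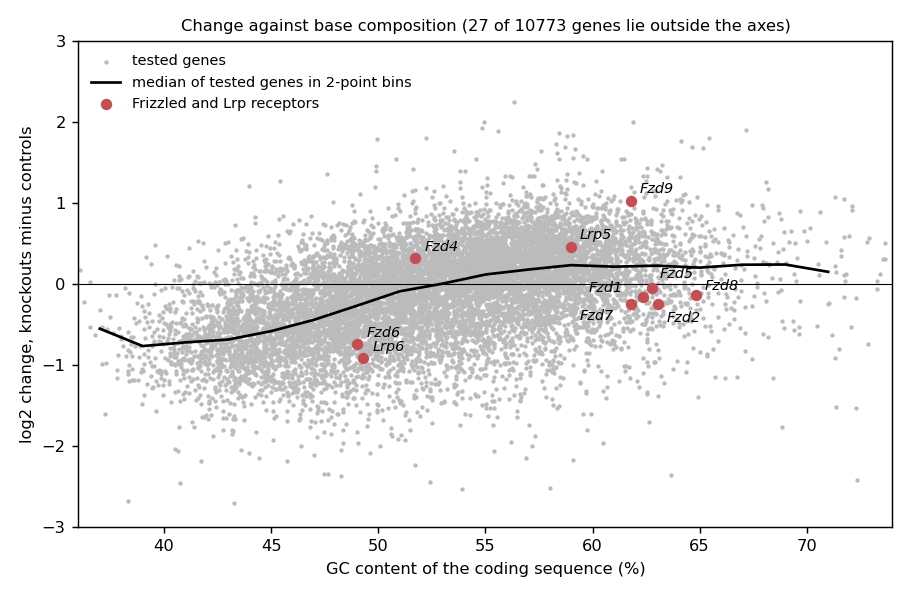
Log2 change of knockouts minus controls against coding GC content (%) for tested genes (grey), with the median in bins of 2 points (line) and the receptors in red. Fzd9 is above the line at 61.8% GC, Lrp6 and Fzd6 are below it at 49.3% and 49.0%, and Fzd1, Fzd2, Fzd5, Fzd7 and Fzd8 are below it between 61.8% and 64.8%.

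The genes whose pattern over the 4 libraries was nearest to the most different receptors were found by distance between centred log2(RPKM + 1) values. For Fzd9 these were Fkbp11 (distance 0.101) and Nrtn (0.115). For Lrp6 they were Tex9 (0.0171) and Thap2 (0.0277), and for Fzd6 they were Baalc (0.113) and Exoc8 (0.114). With 4 points per gene, such a likeness is a description only.

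The other genes of the pathway were read from lists by role. In no list did a gene pass the limma test after adjustment. Each count stands beside the same over all tested genes, of which 55.0% were lower, 13.8% were lower at an unadjusted p under 0.05 and 5.32% were higher at that p, with a median log2 change of -0.08. After the GC content and length correction, the median was 0.04 over all genes. Among other Frizzled-type and Wnt receptors, 6 of 12 were tested, 4 lower and 2 higher, with none at an unadjusted p under 0.05. Ryk, a Wnt receptor with an inactive kinase domain, had 63.9 RPKM in parental cells, 52.0 in vector control cells, 44.1 in exon 3 knockout cells and 66.6 in exon 2 knockout cells, with both controls between the knockouts. Gpr124, which helps Wnt7 ligands to engage a Frizzled, had 73.9 RPKM in parental cells and between 25.6 and 39.0 in the others. Both exceeded every Frizzled but Fzd2 in each library.

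Of 20 Wnt ligands, 5 were tested (2 lower, 3 higher, none at an unadjusted p under 0.05) and 7 had no read in any library. Wnt5a, a ligand of non-canonical signals, had 26.98 RPKM in parental cells, 2.54 in vector control cells, 4.93 in exon 3 knockout cells and 10.01 in exon 2 knockout cells. Wnt7b had 28.9 RPKM in parental cells, 3.34 in vector control cells, 5.60 in exon 3 knockout cells and 14.3 in exon 2 knockout cells. For both ligands the controls were the extremes, as for the receptor Fzd5. Of 8 genes for Wnt secretion and receptor folding, 5 were tested (2 lower, 3 higher, with 2 and 1 at an unadjusted p under 0.05). Porcn, the enzyme that acylates Wnts, had 1.69 and 0.710 RPKM in both control lines, parental first, and 5.62 and 5.75 in the knockouts, exon 3 first (log2 change 1.64, SE 0.380, limma adjusted p = 0.105). Wls, the carrier of Wnts to the cell surface, had 134, 184, 88.8 and 60.7 RPKM in the same order (-1.08, SE 0.323, limma adjusted p = 0.140). The Wls change was -0.54 after the GC and length correction (limma adjusted p = 0.494) and -1.32 without the parental line. After that correction the Porcn change was 1.49. Tmem59, which binds Frizzleds, had 182 to 248 RPKM.

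Of 12 R-spondins and receptor turnover genes, 6 were tested (5 lower, 1 higher, 2 lower and none higher at an unadjusted p under 0.05), with a median log2 change of -0.61, which the GC and length correction moved to -0.34. The deubiquitinase Usp8 and the GTPase regulator Usp6nl had the highest levels of that list, at 11.5 to 28.3 and 7.24 to 16.6 RPKM, with changes of -0.84 and -0.80, and of -0.26 and -0.34 after that correction. Of 18 secreted antagonists 5 were tested (2 lower, 3 higher, with 1 and 1 at an unadjusted p under 0.05). Dkk2, which binds the coreceptors Lrp5 and Lrp6, had 50.2 RPKM in parental cells, 4.04 in vector control cells, 0.104 in exon 3 knockout cells and 0.380 in exon 2 knockout cells. Both knockouts were below both controls, but the controls were far apart, the change was -2.03 without the parental line and -5.38 without the vector control, and the limma adjusted p was 0.0979 for a log2 change of -3.70 (SE 0.787). Kremen1, the Dkk receptor that removes Lrp6 from the surface, had between 24.2 and 53.2 RPKM, and Igfbp4, which can block Lrp6 and Fzd8, between 177 and 738.

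Inside the cell, 25 of 27 transducers were tested, 15 lower and 10 higher, with 5 lower and none higher at an unadjusted p under 0.05. Their median was -0.29, or -0.18 after the GC and length correction. Over all tested genes, 19.1% had an unadjusted p under 0.05 in either direction, a share close to 5 of 25. Ctnnb1, the gene of beta-catenin, had 325, 331, 218 and 237 RPKM in parental cells, vector control, exon 3 knockout and exon 2 knockout (log2 change -0.53, limma adjusted p = 0.334, and -0.31 after the correction). Tnks, a tankyrase that marks Axin for breakdown, had 15.6, 17.6, 6.62 and 6.31 RPKM in the same order. Its log2 change was -1.23 (limma adjusted p = 0.117), and -0.97 after the correction. Csnk1g2, a kinase of the family that phosphorylates Lrp6, was among the highest of the list, at 101 to 142 RPKM, with a change of 0.27, and 0.07 after the correction.

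Of 16 Tcf factors and coactivators, 13 were tested (6 lower, 7 higher, 1 lower and none higher at an unadjusted p under 0.05), with a median of 0.02. The corepressor Ctbp1 and the adaptor Ldb1 had the highest levels there, with changes of 0.26 and 0.41, and of 0.07 and 0.37 after the correction. Of 23 target genes, 15 were tested (9 lower, 6 higher, 2 lower and none higher at an unadjusted p under 0.05). Their median was -0.35, and -0.34 after the correction. The targets Ccnd1 and Myc had overlapping groups, at 253 to 609 and 153 to 402 RPKM. Wisp1 had 19.9 and 19.6 RPKM in both control lines, parental first, and 8.37 and 9.75 in the knockouts, exon 3 first. Its log2 change was -1.05 (limma adjusted p = 0.140), and -1.26 after the correction. Of 30 genes of the planar polarity and Wnt-calcium branch, 24 were tested (18 lower, 6 higher, 8 lower and none higher at an unadjusted p under 0.05), with a median of -0.38. Over all tested genes, 13.8% were lower and 5.32% higher at that p. The genes of this branch had a median coding GC content of 51.9%, and their median change was -0.23 after the GC and length correction. The 8 lower genes include Prkca and Ctnnal1, as the 2 lower targets include Wisp1. From its RNA-seq of these lines, the paper lists these named genes under the Wnt pathway as affected, so the counts are not separate evidence. Prkca, a calcium-dependent kinase, had 21.5 and 15.3 RPKM in the controls, parental first, and 6.98 and 7.60 in the knockouts, exon 3 first. Its log2 change was -1.21 (limma adjusted p = 0.130), and -0.99 after the correction. Ctnnal1, a catenin-like gene, had 15.6 and 18.4 RPKM against 5.04 and 8.04 (-1.28, limma adjusted p = 0.127, and -0.84 after the correction). The GTPases Rhoa and Rac1 had changes of 0.27 and 0.07, and of 0.41 and 0.12 after the correction.

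**Figure D5:**
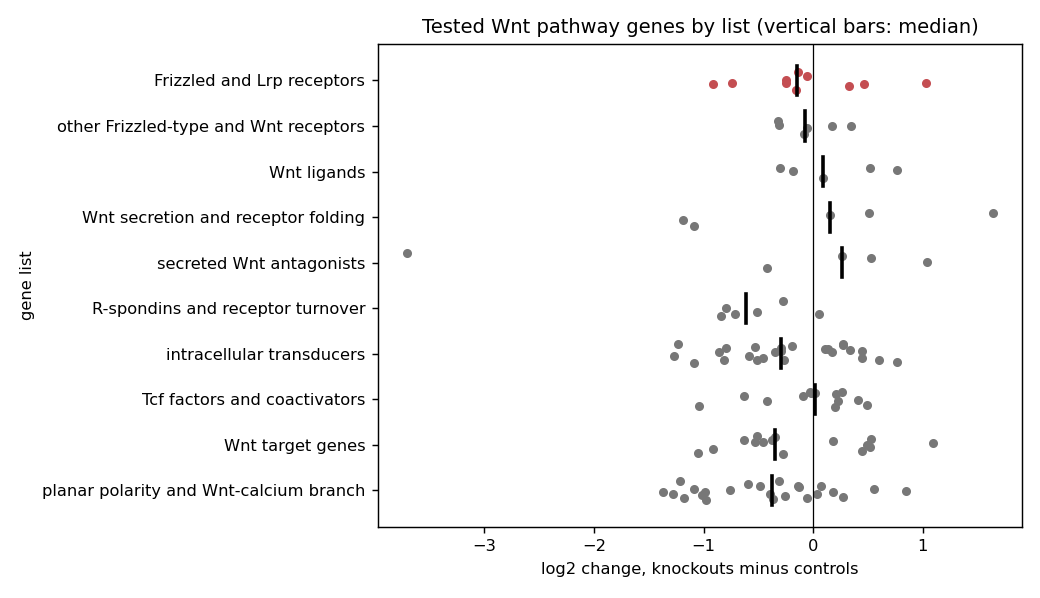
Log2 change, knockouts minus controls, of the tested genes of each Wnt list (points) with the list median (vertical bars), the receptors in red. The receptors run from -0.91 to 1.03 with a median of -0.15, and the list medians run from -0.61 for receptor turnover to 0.26 for secreted antagonists.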

How the data were processed

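RNA of 4 lines was sequenced from stranded libraries of total RNA, as the labels have it. Per the labels, CASAVA 1.8, GSNAP and GRCm38 were used, without their role for this table. The authors deposited RPKM values for 21090 genes in 4 columns, with no log scale and no scaling between libraries, and 0 columns of per-sample values were left unmatched. Gene model and counting rule are not given in the sources used here. The RPKM values come to whole reads in all libraries for 99.99% of 15405 genes above 0 (tolerance 0.001 reads), which gave the depths and the Wilson intervals. The length found this way equalled an annotated coding length in 58.8% of annotated coding genes with mean RPKM of at least 1. Intervals cover counting error only.

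Groups came from the titles. Values were tested as log2(RPKM + 1) with limma 3.58.1 (R 4.3.3) with an intensity trend, 2 knockouts against 2 controls, for 10871 genes with mean RPKM of at least 1, with Benjamini-Hochberg adjustment at 0.05. The script was tested on simulated data. Ratios, shares and exact tests used Python 3.11.15. Positions and sequences are from GENCODE M21 on GRCm38, which matched 99.44% of symbols.

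The members and the gene lists were chosen with earlier results of these data known. Genes were named if they were receptors, if they were pathway genes past the limma threshold or with a 2-fold difference in each of the 4 pairs, if they had the 2 highest means of a list, if the study lists them under Wnt, or if they were the 2 nearest patterns of the 3 receptors with the largest change. Alternatives were other pseudocounts, filters, scalings, priors, fold limits and lengths, a GC and length correction, and leaving out each library.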

Additional observations from a re-analysis of the deposited data

Results flagged for a closer look

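The Wnt receptor gene Ryk had the 2 knockouts on opposite sides of both controls. The exon 3 knockout (44.1 RPKM) was below, and the exon 2 knockout (66.6 RPKM) above, the parental line (63.9 RPKM) and the vector control (52.0 RPKM). The log2 difference of the exon 3 from the exon 2 knockout was -0.58. With 1 library per line this difference was not tested.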

How the results depend on the processing

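With 2 libraries against 2, each value rests on single lines. No paired analysis was possible because the replicate numbers follow the order of deposition, and the cell number 307 in the titles belongs to both controls and the exon 3 knockout while 308 belongs to no control, which forms no pairs. No member passed the limma test in any of the settings run, and Fzd9, Fzd4, Lrp6 and Fzd6 kept their direction in every setting that tested them. Over the left-out libraries their log2 changes ran from 0.89 to 1.17, 0.15 to 0.50, -1.20 to -0.62 and -1.12 to -0.36, and without the exon 2 knockout Fzd4 and Fzd6 were at 0.15 and -0.36.

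The count of all genes called was 2, and became 1 with a pseudocount of 0.1, 0 with no filter, 32 with a mean RPKM of at least 5, 0 with median ratio scaling, 1 with quantile normalization, 0 with the GC content and length correction and 285 with a robust prior. Beside the counts of 0, 2132, 2177 and 1402 genes had an unadjusted limma p under 0.05 with no filter, median ratio scaling and the GC correction. Leaving out each library gave 3 to 788 genes, with 788 without the parental line and 451 without the vector control. The cause was not tested. The count of members 2-fold apart in all pairs went from 0 to 1 (Fzd9) with a pseudocount of 0.1, with quantile normalization and at 1.5-fold, and ran from 0 to 2 over the left-out libraries. It was Fzd9 without the parental line, Fzd6 without the exon 3 knockout, and Fzd9 and Lrp6 without the exon 2 knockout. With a pseudocount of 0.1 the exon 2 knockout had 2 members 2-fold from the parental line in place of 1. The member median moved to 0.17 with quantile normalization and to -0.30 with the GC content and length correction. Over the left-out libraries the member median ran from -0.32 to 0.057. The median of all genes was -0.08, and 0.04 with either quantile normalization or the GC correction.

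Directions reversed to 0.017 for Fzd5 and 0.0037 for Ryk with median ratio scaling. With quantile normalization they reversed to 0.13 for Fzd1, 0.27 for Fzd5, 0.20 for Fzd8, -0.021 for Ccnd1, -0.092 for Rac1, -0.039 for Tmem59 and 0.015 for Wnt7b. With the GC correction they reversed to -0.038 for Ccnd1 and 0.14 for Ryk. Over the left-out libraries the log2 change ran from -0.39 to 0.072 for Fzd1, -0.60 to 0.10 for Fzd2, -0.59 to 0.48 for Fzd5, -0.67 to 0.17 for Fzd7, -0.082 to 1.009 for Lrp5, -1.07 to 0.43 for Gpr124, -0.93 to 0.076 for Kremen1, -0.024 to 0.17 for Rac1, -0.38 to 0.20 for Ryk, -1.79 to 1.19 for Wnt5a, -1.57 to 1.21 for Wnt7b, -0.45 to 0.81 for Ccnd1 and -0.033 to 0.34 for Tmem59. Porcn, Tnks and Ctnnal1 passed the limma threshold with a robust prior (adjusted p of 0.0227, 0.0483 and 0.0462). Without the parental line, the log2 changes of Ctnnal1, Dkk2, Porcn and Wls were -1.39, -2.03, 1.97 and -1.32. Without the vector control, those of Dkk2, Igfbp4, Prkca, Wnt5a and Wnt7b were -5.38, 1.29, -1.44, -1.79 and -1.57. Each of these fits left 1 control library and cannot measure the spread between controls, so no p-value is given for it.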

Other observations

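The Wnt ligands and antagonists given here were chosen after their values were seen. Wnt10a had 15.8 RPKM in parental cells, 2.20 in vector control cells, 7.51 in exon 3 knockout cells and 17.2 in exon 2 knockout cells. Sfrp1, a secreted Frizzled-like antagonist, had 4.84 RPKM in parental cells, 1.04 in vector control cells, 0.406 in exon 3 knockout cells and 11.3 in exon 2 knockout cells. Wnt10b was steadier, with 7.64 to 12.3 RPKM. Wnt6 had 3.63 and 2.23 RPKM in both control lines, parental first, and 4.28 and 4.84 in the knockouts, exon 3 first. Its limma adjusted p was 0.444. It was the 1 of 5 tested ligands with both knockouts above both controls, beside 21.9% of all tested genes, so this count was near the background. Notum, an enzyme that removes the lipid of Wnts, had between 11.9 and 30.7 RPKM, with overlapping groups.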
